A study of Rattus norvegicus with 8 samples.

Results

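The interferon-stimulated genes described here are Irf7, Usp18, Isg15, Ifit2, Ifit3, Mx1, Mx2, Oas1a, and Rsad2. They are 9 of the 30560 gene identifiers in the count table, chosen by gene symbol as familiar targets of type I interferon, and all 9 were found. For each gene the transcript with the highest summed raw count was taken. Expression was measured by RNA-Seq in the thyroid of 8 male Wistar rats, and the question was whether these genes differed late after irradiation, at either age. At the age of 1 week, the 1w0Gy rats were sham-irradiated and the 1w4Gy rats received 4 Gy of X-rays to the neck. Rats of 4m0Gy and 4m4Gy were treated in the same way at 4 months of age. Thyroids were dissected about 8 weeks later, and each of the 4 groups holds 2 samples from different rats, those with the higher RNA integrity in their group. The rats irradiated at 1 week were therefore young adults at dissection, and age at irradiation and age at dissection cannot be told apart.

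Type I interferons are secreted proteins that cells make when their sensors detect viral or misplaced nucleic acid. They bind the receptor Ifnar1/Ifnar2 and, through factors that include Stat2 and Irf9, switch on a set of antiviral and regulatory genes whose promoters carry an interferon-stimulated response element. Some of these genes are also transcribed at a low tonic level without infection.

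Promoter sequences of 5 of the 9 genes were matched in the RefSeq table of assembly GRCr8, each running from 250 bases before to 50 bases after the transcription start. The element was searched on both strands as GAAA, any 2 bases, and GAAA again, and 4 of the 5 promoters held it. They are shown because this element is the one that Irf9 and its partners bind. The capitals mark the element, with 20 bases on each side in lower case, written 5′ to 3′ on the strand of the gene, so that an element on the opposite strand reads as TTTC, 2 bases, and TTTC.
Irf7: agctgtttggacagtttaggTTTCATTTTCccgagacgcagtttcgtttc
Ifit3: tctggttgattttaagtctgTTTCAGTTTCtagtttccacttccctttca
Rsad2: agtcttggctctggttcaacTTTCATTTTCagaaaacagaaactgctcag
Oas1a: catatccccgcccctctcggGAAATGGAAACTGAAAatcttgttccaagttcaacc
The Irf7 stretch lies at chr1:205800063-205800112 on the minus strand, and the Ifit3 stretch at chr1:241527262-241527311 on the plus strand. The Rsad2 stretch lies at chr6:48788238-48788287 on the minus strand, and the Oas1a stretch at chr12:41330405-41330460 on the plus strand. In Irf7, Ifit3, and Rsad2 the element stood on the opposite strand, 59, 34, and 137 bases before the start. In Oas1a it stood on the strand of the gene as 2 overlapping matches, 31 and 25 bases before the start. The fifth promoter, that of Mx1, had no match in this window. The share of all 33469 promoters that held the element was 3.92%, against 25 of 48 promoters (52.1%) of a list of other interferon-stimulated genes and 0 of 5 of the thyroid follicular markers. A match describes the sequence and is not shown to be a bound site.

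The samples held 14835406 to 18138106 counts on genes, and thyroglobulin (Tg) took 18.5% to 21.3% of them. Levels are given as CPM, library-scaled counts after TMM, and, where genes are compared with each other, as the deposited TPM, which also divides by transcript length. Cdkn1a, a cell cycle inhibitor induced by p53, stood at 15.1 and 14.4 CPM (1w0Gy), 46.6 and 38.5 CPM (1w4Gy), 17.4 and 15.4 CPM (4m0Gy), and 46.4 and 38.1 CPM (4m4Gy), so that the irradiated samples were separated from the sham samples at both ages. It was not called in either comparison by the main edgeR fit, with a fold of 2.88 and an adjusted p of 0.0811 at 1 week and a fold of 2.57 and an adjusted p of 0.104 at 4 months. Under other settings with all samples kept, its adjusted p was below 0.05 in 4 of 9 fits at 1 week. At 4 months this held in 3 of the 8 fits that gave it an adjusted p. The study reported it as increased at both ages, by RNA-Seq and by Q-RT-PCR. The dissected tissue also held transcripts of parathyroid (Pth, 298 to 5306 CPM) and C cells (Calca, 1786 to 6769 CPM), and of brown fat (Ucp1, 1.19 to 43.5 CPM). In bulk RNA, fewer cells of a type and less RNA per cell cannot be told apart.

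All 9 genes were expressed in every sample and passed the filter on low counts. The lowest count was 36, for Rsad2. By mean TPM over the 8 samples, Mx2 was highest with 23.98 ± 3.204 (SD, n = 8), followed by Irf7 (18.4 ± 3.45), Isg15 (15.1 ± 2.75), Mx1 (13.6 ± 1.90), Usp18 (11.7 ± 2.07), Oas1a (5.85 ± 1.11), Ifit2 (5.16 ± 0.884), Ifit3 (2.16 ± 0.366), and Rsad2 (1.33 ± 0.417). In this order the ranges over the samples were clear of the next gene only between Usp18 and Oas1a and between Ifit2 and Ifit3, and all other neighbours overlapped. The highest sample was 1.46 to 2.08 times the lowest for each gene, least for Mx1 and most for Rsad2. Mx1, Mx2, and Oas1a have close relatives in the genome, as do the Ifit genes, and reads shared between copies could have been counted for either.

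Irf7 encodes the transcription factor that amplifies interferon production. Its level was 45.2 and 35.8 CPM (1w0Gy), 48.6 and 31.9 CPM (1w4Gy), 31.5 and 49.9 CPM (4m0Gy), and 37.8 and 38.3 CPM (4m4Gy). The group means lay within 38.0 to 40.7 CPM, while the 2 samples of 1w4Gy differed 1.52-fold and those of 4m0Gy 1.59-fold, so all groups overlapped.

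Usp18 and Isg15 belong to the brake and the tag of the response. Usp18 removes the ubiquitin-like protein Isg15 from its targets and also dampens signalling at Ifnar2. Usp18 stood at 24.2 and 23.1 CPM (1w0Gy), 24.1 and 20.2 CPM (1w4Gy), 19.8 and 29.6 CPM (4m0Gy), and 18.6 and 19.6 CPM (4m4Gy). Isg15 stood at 11.8 and 10.1 CPM (1w0Gy), 14.3 and 9.52 CPM (1w4Gy), 9.24 and 12.6 CPM (4m0Gy), and 9.49 and 9.39 CPM (4m4Gy). For Usp18 both 4m4Gy samples lay just below both 4m0Gy samples, whereas for Isg15 the 4m4Gy samples lay between them.

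The remaining genes encode effectors. Mx1 and Mx2 are dynamin-like GTPases that block viruses, in the rat in the nucleus and the cytoplasm, respectively. Mx1 stood at 50.3 and 45.3 CPM (1w0Gy), 46.6 and 53.3 CPM (1w4Gy), 46.5 and 60.2 CPM (4m0Gy), and 41.3 and 45.9 CPM (4m4Gy). Mx2 stood at 57.3 and 54.4 CPM (1w0Gy), 47.0 and 60.2 CPM (1w4Gy), 62.2 and 72.1 CPM (4m0Gy), and 56.9 and 60.0 CPM (4m4Gy). For both genes the 4m0Gy samples lay above the 4m4Gy samples, and for Mx2 they also lay above the 1w0Gy samples.

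Ifit2 and Ifit3 encode tetratricopeptide repeat proteins that act on viral RNA and its translation. Ifit2 stood at 20.9 and 20.5 CPM (1w0Gy), 23.4 and 20.7 CPM (1w4Gy), 14.0 and 19.1 CPM (4m0Gy), and 15.7 and 17.4 CPM (4m4Gy). All 4 samples of rats treated at 4 months were below all 4 samples of rats treated at 1 week. Ifit3 ranged from 4.07 to 6.33 CPM, with both extremes in 4m0Gy.

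Oas1a makes the oligoadenylates that activate RNase L, and Rsad2 encodes viperin, which makes a chain-terminating nucleotide. Oas1a ranged from 13.6 to 20.9 CPM. Its 4m4Gy samples, at 13.6 and 14.7 CPM, were at the low end, and so was sample 1 of 4m0Gy at 13.6 CPM. Rsad2 stood at 4.86 and 3.42 CPM (1w0Gy), 4.97 and 4.39 CPM (1w4Gy), 2.46 and 3.87 CPM (4m0Gy), and 2.39 and 2.46 CPM (4m4Gy). Its sample of 4m0Gy replicate 2 was the only one of the 4-month samples inside the range of the 1-week samples.

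**Figure D1:**
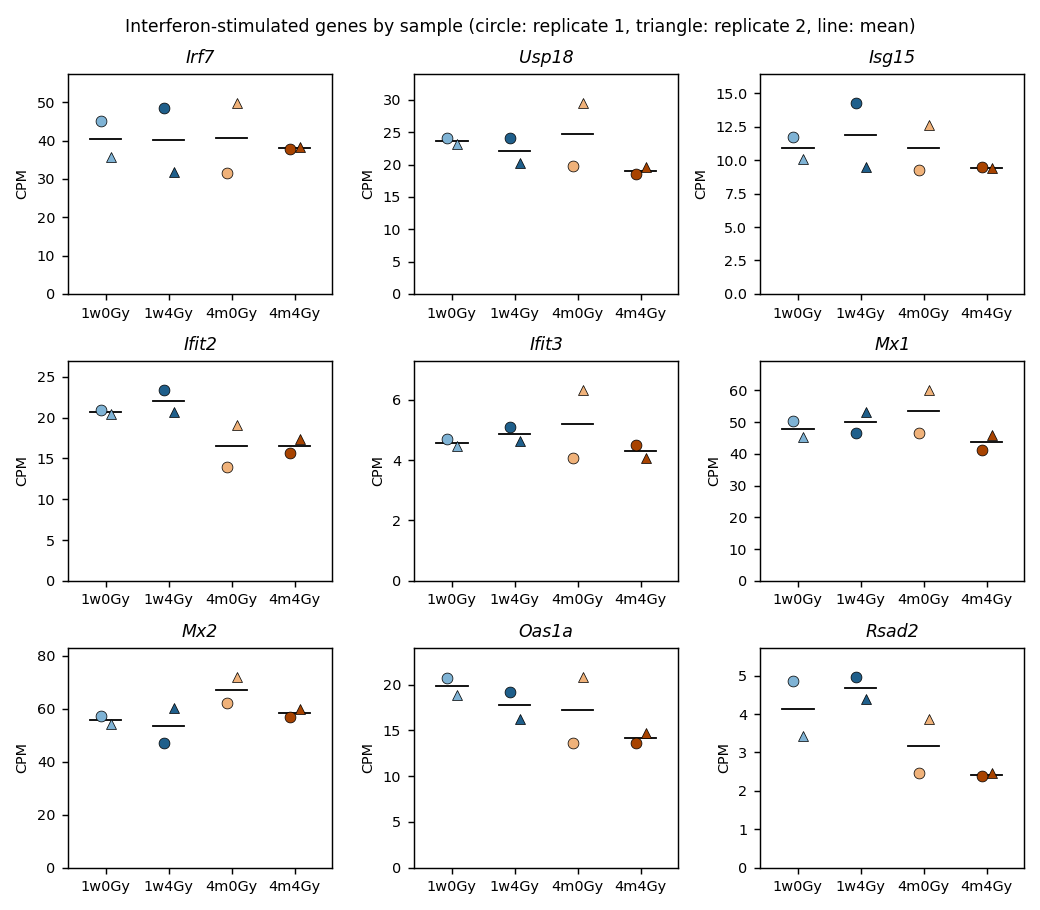
CPM of each interferon-stimulated gene (y axis, from 0) in the 4 groups (x axis), with replicate 1 as circles, replicate 2 as triangles, and the group mean as a line. The triangle of 4m0Gy lies above the circle in all 9 panels and is the highest of the 8 samples in 6 of them.

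By neonatal irradiation, 0 of the 9 genes were called, and their values lay on both sides of 0. In edgeR's quasi-likelihood test of 1w4Gy against 1w0Gy with Benjamini-Hochberg adjustment, 0 of 15359 genes (0%) were called with an adjusted p below 0.05 and a fold above 1.5 or below 0.5. At an unadjusted p under 0.05 there were 882 genes (5.74%), of which 0 were interferon-stimulated genes listed here. DESeq2's Wald test called 13 of 21232 genes (0.0612%), again with 0 of the 9. The median log2 fold change of the 9 genes was 0.06, with 5 above 0 and 4 below, and the median over all genes tested was -2.6e-05. Single values ran from -0.16 ± 0.13 (SE) for Oas1a to 0.17 ± 0.25 for Rsad2. The 2 groups overlapped for all 9 genes, while 17.7% of all genes lay higher in both 1w4Gy samples and 17.8% lower. For each of the 9 genes the difference of the group means was smaller than the larger gap between the samples of a group. The share of all genes for which this held was not measured, so it does not set these genes apart. The 95% intervals of the 9 fold changes together spanned 0.716-fold to 1.69-fold. They are not limits of detection, and the smallest change that could be called with 2 rats per group was not measured. In this edgeR comparison Cdkn1a, with a fold of 2.88, was not called.

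By irradiation at 4 months, 0 of the 9 genes were called, although all 9 had a fitted value below 0. The median log2 fold change of 4m4Gy against 4m0Gy was -0.28, from -0.39 ± 0.32 (SE) for Rsad2 to -0.003 ± 0.17 for Ifit2, and of all 15253 genes tested 48.1% were below 0 and 51.9% above. edgeR's quasi-likelihood test called 0 of these genes (0%), and DESeq2's Wald test called 4 of 21203 (0.0189%), with 0 of the 9. At an unadjusted p under 0.05 there were 1227 genes (8.04%), and 0 of the 9. The nearest were Mx1 (log2 fold change -0.30 ± 0.13, unadjusted p = 0.0571, edgeR adjusted p = 0.628) and Mx2 (-0.20 ± 0.093, unadjusted p = 0.0639, edgeR adjusted p = 0.636). Mx1, Mx2, and Usp18 were lower in both 4m4Gy samples than in both 4m0Gy samples, 3 of 9 genes, and 18.7% of all genes were. The differences of all 9 genes were again smaller than the larger gap between samples of a group, with the share of all genes again not measured. The 95% intervals together spanned 0.452-fold to 1.32-fold.

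These values depended on both samples of 4m0Gy, which differed from each other. Sample 2 of 4m0Gy was higher than sample 1 of the same group for 9 of 9 genes, by a median of 0.56 on the log2 scale. Of 14396 genes, 6961 were higher in sample 2 by any amount, and 4.67% were higher by more than this median. The gaps ran from 0.21 for Mx2 to 0.66 for Irf7. In the other groups the median of sample 2 minus sample 1 was -0.13 in 1w0Gy, -0.18 in 1w4Gy, and 0.07 in 4m4Gy. Sample 2 of 4m0Gy was the highest of all 8 for Irf7, Usp18, Ifit3, Mx1, Mx2, and Oas1a. For Isg15, Ifit2, and Rsad2 the highest was sample 1 of 1w4Gy. Without sample 2 of 4m0Gy the median log2 fold change of 4m4Gy against 4m0Gy was 0.02, with 5 genes above 0 and 4 below, and Irf7 stood at 0.26. Without sample 1 of 4m0Gy the median was -0.47, and all 9 genes were below 0, against 49.6% of all genes in that fit. In both of these fits the lone sham sample was assumed to vary like the 4m4Gy samples.

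**Figure D2:**
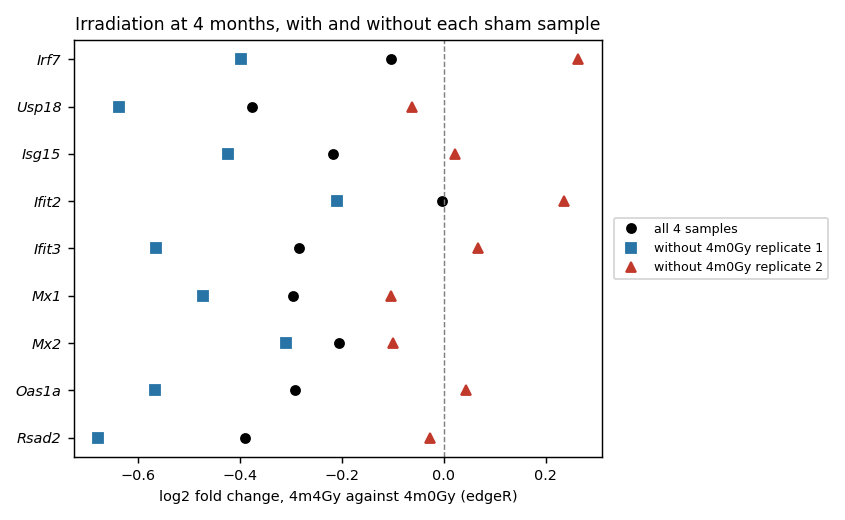
Fitted log2 fold change of 4m4Gy against 4m0Gy (x axis) for each gene (y axis), with all 4 samples (circles), without sample 1 of 4m0Gy (squares), and without sample 2 (triangles). The values with all samples lie at or below 0, those without sample 1 move further down to a median of -0.47, and those without sample 2 gather around 0 with a median of 0.02.

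The responses at the 2 ages were compared in 1 model of all 8 samples, which uses the same samples as the comparisons above. For all 9 genes the neonatal response minus the adult response was above 0, with a median of 0.28 on the log2 scale and values from 0.09 ± 0.22 (SE) for Ifit2 to 0.56 ± 0.40 for Rsad2. Among all genes 47.7% were above 0 and 52.3% below. edgeR's quasi-likelihood test called 0 of 15684 genes (0%) for this difference, and 1430 genes (9.12%), with 0 of the 9, passed an unadjusted p of 0.05. The Wald test of DESeq2 called 21 of 22179 genes (0.0947%), with 0 of the 9. The median without sample 2 of 4m0Gy was 0.02, and without sample 1 it was 0.53. A difference between the ages in the response of these genes was thus not shown.

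Over both ages, 4 irradiated samples were compared with 4 sham samples, with age as a term. The median log2 fold change of the 9 genes was -0.09, from -0.23 ± 0.13 (SE) for Usp18 to 0.05 ± 0.11 for Ifit2, with 1 gene above 0 and 8 below, against 50.5% and 49.5% of all genes. The sham and irradiated samples overlapped for all 9, while 0.995% of all genes were higher and 0.555% lower in all 4 irradiated samples. edgeR's quasi-likelihood test called 1 of 15684 genes (0.00638%), which was Cdkn1a, and 633 genes (4.04%) had an unadjusted p under 0.05, with 0 of the 9 among them. DESeq2's Wald test called 12 of 22179 genes (0.0541%) and 0 of the 9. The median rose above 0 only without sample 2 of 4m0Gy, where it was 0.08.

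Age was compared in the sham rats, 4m0Gy against 1w0Gy, with the same control samples as above. With edgeR's quasi-likelihood test 111 of 15364 genes (0.722%) were called at an adjusted p under 0.05, and 0 of the 9 were among them. DESeq2's Wald test called 343 of 21241 genes (1.61%), with 0 of the 9. Mx2 had a log2 fold change of 0.27 ± 0.091 (SE), an unadjusted p of 0.0238, and an edgeR adjusted p of 0.214, and both 4m0Gy samples lay above both 1w0Gy samples. In this edgeR test an unadjusted p under 0.05 held for 2723 of 15364 genes (17.7%), and for 1 of the 9. Ifit2 had -0.33 ± 0.16 with an edgeR adjusted p of 0.349, and both 4m0Gy samples lay below. Among all genes, 25.4% lay without overlap above and 24.8% below. The median of the 9 genes was 0.01, and it was -0.26 without sample 2 of 4m0Gy and 0.30 without sample 1.

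With age averaged over both doses in 1 model of all 8 samples, 666 of 15684 genes (4.25%) were called, and 0 of the 9. Ifit2 was lower at 4 months by a log2 fold change of -0.37 ± 0.11 (SE), with an edgeR adjusted p of 0.0790, and the groups did not overlap, as for 6.61% of all genes in this direction and 6.19% in the other. Rsad2 had -0.66 ± 0.21 with an edgeR adjusted p of 0.111, and Mx2 had 0.20 ± 0.085 with an edgeR adjusted p of 0.229. These 3 genes had an unadjusted p under 0.05, as did 20.6% of all genes.

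**Figure D3:**
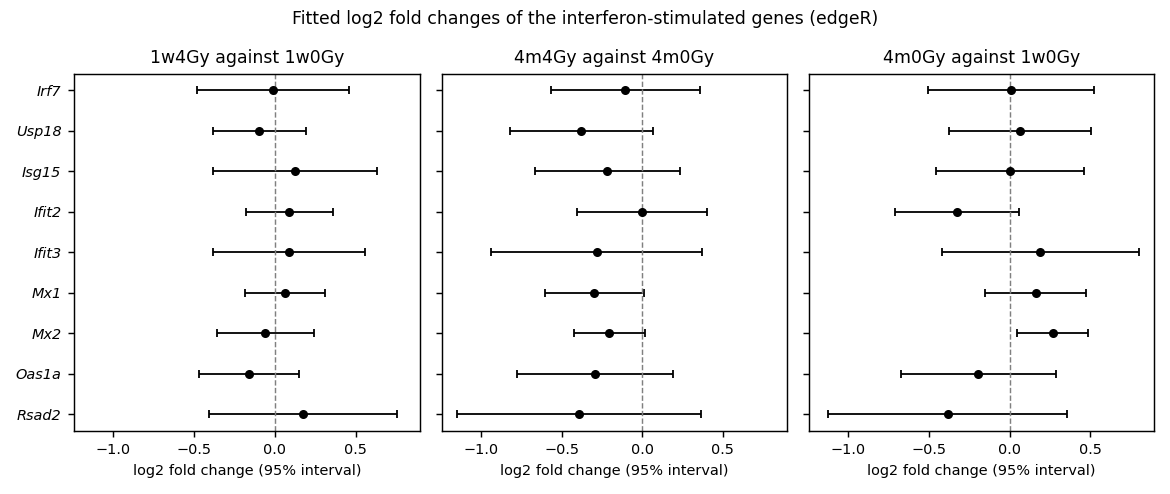
Fitted log2 fold changes (x axis, points) with 95% intervals (bars) of the 9 genes (y axis) for neonatal irradiation, irradiation at 4 months, and age in sham rats. Every interval includes 0 except that of Mx2 in the age comparison, and the adult values lie at or below 0.

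The 9 genes varied together across samples, with Mx2 mostly apart. Over the 8 samples, Pearson's r between log2 CPM values was above 0 for 31 of 36 pairs, with a median of 0.63. Among the 28 pairs without Mx2 all were above 0, with a median of 0.72, and the closest pair was Oas1a with Usp18 (r = 0.91). The 8 pairs with Mx2 had a median of -0.06, lowest with Ifit2 (r = -0.45) and highest with Mx1 (r = 0.63). Without sample 2 of 4m0Gy the median was 0.71 for the pairs without Mx2 and -0.67 for the pairs with it. The lowest pair without Mx2 was then Mx1 with Irf7 (r = -0.09). All pairs share the same libraries, which hold 2 ages and 2 doses. As a mean of standardized log2 CPM, the 9 genes were highest in sample 2 of 4m0Gy (1.29 SD units) and lowest in sample 1 of 4m0Gy (-0.85), with the 4m4Gy samples at -0.82 and -0.58. Sample 1 was higher than sample 2 in 1w0Gy (0.55 and -0.12) and in 1w4Gy (0.57 and -0.04).

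Among 14387 other genes whose mean was at least 1 CPM, the 10 most like this mean over the 8 samples were Slc11a1 (r = 0.96), Papln, Lilrb3, Rflnb, Chp2, St3gal5, Xaf1, Calr4, Adrb1, and RT1-S3 (r = 0.91). Xaf1, an interferon-inducible gene of the list below, ran from 16.5 CPM in sample 1 of 4m0Gy to 21.1 in sample 1 of 1w4Gy. Slc11a1, a metal transporter of phagocytes, ran from 1.03 CPM in sample 1 of 4m0Gy to 2.29 in sample 2 of that group. Calr4 and Adrb1 fell below 1 CPM in some samples, and RT1-S3 belongs to a family of similar histocompatibility genes.

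**Figure D4:**
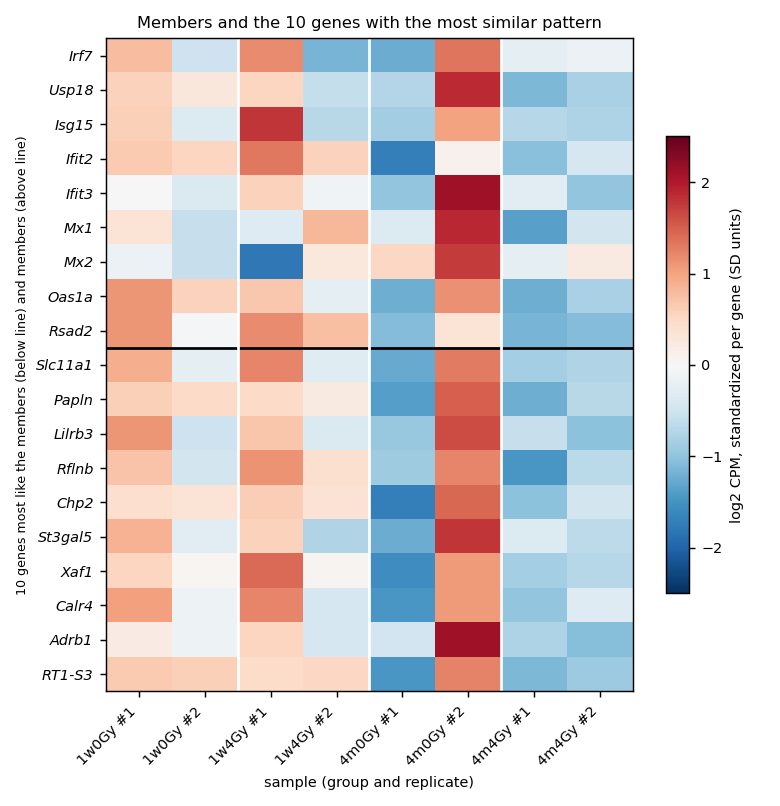
Log2 CPM standardized per gene (colour, in SD units, red high and blue low) in the 8 samples (columns) for the 9 interferon-stimulated genes above the line and the 10 genes with the highest r to their mean below it. Sample 2 of 4m0Gy is red in all rows of members, palest for Ifit2, while both 4m4Gy samples are mostly blue. Mx2 is blue in sample 1 of 1w4Gy, where most other members are red.

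Of 11 interferon ligand names 6 were matched (Ifna1, Ifna4, Ifnb1, Ifne, Ifnk, and Ifng), and together they had 0 to 3 counts per sample. No ligand exceeded 2 counts in a sample, and Ifna4 was at 0 in all samples, which allows up to 3 counts or 0.162 to 0.199 CPM per sample. None of them passed the filter on low counts. The receptor genes Ifnar1 and Ifnar2 stood at 51.1 to 60.8 and 78.6 to 95.1 CPM. Stat2 and Irf9, which act together on the element, stood at 177 to 192 and 32.5 to 43.0 CPM.

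In the list of receptors and signalling genes, 7 were tested and edgeR called 0 in each of the 5 comparisons. Their median log2 fold change was 0.06 by neonatal irradiation and -0.04 by irradiation at 4 months. Of 17 nucleic acid sensor names 13 were matched, again with 0 called, and their medians were 0.09 and -0.06. Of 54 other interferon-stimulated genes 46 were matched and 43 tested, with 0 called by edgeR in each comparison. In the neonatal comparison 24 were above 0 and 19 below (median 0.02, 4 at an unadjusted p under 0.05). In the adult comparison 11 were above 0 and 32 below (median -0.09, 3 at an unadjusted p under 0.05). Of the 43 genes, 37 were higher in sample 2 than in sample 1 of 4m0Gy, against 6961 of 14396 genes. DESeq2 called 1 of this list, Parp9, which was lower with age in sham rats (named after its value was seen, DESeq2 log2 fold change -0.53, DESeq2 adjusted p = 0.0038). Of 21 genes linked with interferon gamma 19 were matched, with 0 called and medians of 0.02 and 0.06 by irradiation at 1 week and 4 months.

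Markers of other cells were set beside the 9 genes. The summed CPM of 12 macrophage and dendritic cell markers was 189.6 and 154 at 1w0Gy, 168 and 146 at 1w4Gy, 86.9 and 127 at 4m0Gy, and 111 and 115 at 4m4Gy. All 10 of these markers with enough counts were higher in sample 2 of 4m0Gy than in sample 1, by a median of 0.54 on the log2 scale, close to the 0.56 of the interferon-stimulated genes. With the mean of the 9 genes over the 8 samples, these 10 markers had a median r of 0.61, and 10 of 10 were above 0.5. The 43 other interferon-stimulated genes had a median r of 0.51, with 23 above 0.5. Among 14387 genes the median r was -0.01, with 1654 above 0.5. The order of the summed macrophage and dendritic cell markers across ages differed, however, with the 1-week samples all above the 4-month samples. In sham rats all 10 tested had a lower fitted value at 4 months (median -0.67, 7 at an unadjusted p under 0.05, 0 called by edgeR and 3 by DESeq2, namely C1qa, C1qc, and Csf1r). By irradiation at 4 months, where all 9 interferon-stimulated genes were below 0, these markers were 5 above and 5 below with a median of 0.02, and by neonatal irradiation 2 above and 9 below with a median of -0.18. Siglech, a marker of plasmacytoid dendritic cells, the main source of type I interferon in blood, was at 0 in all samples. The pan-leukocyte gene Ptprc stood at 6.91 and 10.8 CPM in the 4m0Gy samples, and the 13 matched lymphocyte and granulocyte markers with it summed to 10.6 to 19.4 CPM, with the T cell gene Cd3e at 0.194 to 0.730 and the B cell gene Cd79a at 0.517 to 1.48. By irradiation at 4 months 4 of 5 leukocyte markers tested were above 0, with a median of 0.69 and 0 called. These 4 (Cd8a, Cd79a, Nkg7, and S100a9) had only 4 to 23 counts in the 4-month samples. Ptprc, with 107 to 184 counts there, had a log2 fold change of -0.04 ± 0.23 (SE). The part of these cells in the levels of the 9 genes was not tested.

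Ucp1, the uncoupling protein of brown fat, stood at 43.5 and 25.4 CPM (1w0Gy), 19.2 and 6.36 CPM (1w4Gy), 1.55 and 39.2 CPM (4m0Gy), and 1.19 and 2.01 CPM (4m4Gy). It was higher in sample 2 than in sample 1 of 4m0Gy and had r = 0.89 with the mean of the 9 genes over the 8 samples, the 16th of 14387 genes. The 7 neighbouring tissue markers with enough counts had a median r of -0.13. The 7 endothelial markers had a median log2 fold change of 0.23 by neonatal irradiation (7 of 7 above 0, 5 at an unadjusted p under 0.05, 0 called), and all 7 were higher in sample 2 of 4m0Gy. The 9 thyroid follicular markers did not separate the 4m0Gy samples, with 4 higher in sample 2 and a median gap of -0.01. The part of neighbouring tissue in the levels of the 9 genes was not tested.

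**Figure D5:**
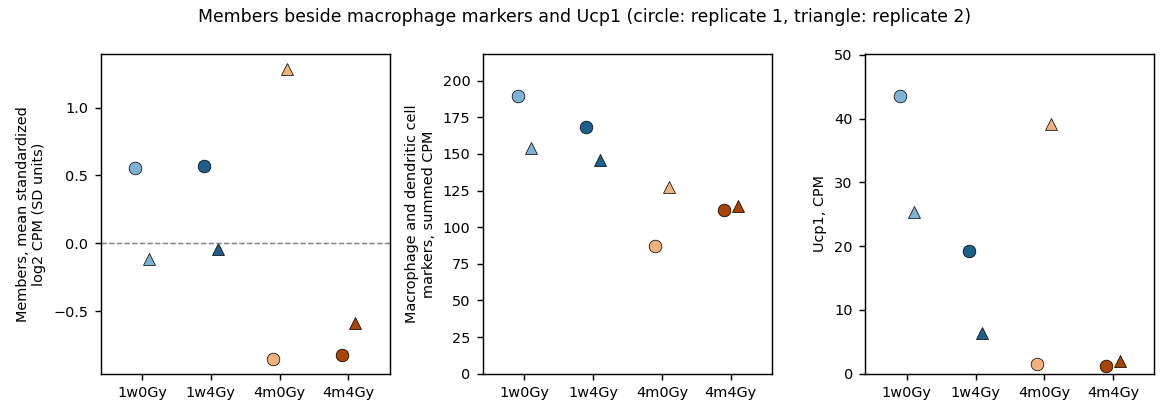
Mean standardized log2 CPM of the 9 interferon-stimulated genes (left), summed CPM of the macrophage and dendritic cell markers (middle), and CPM of Ucp1 (right) in the 4 groups, with replicate 1 as circles and replicate 2 as triangles. In 4m0Gy replicate 2 is above replicate 1 in all panels, and the macrophage markers are higher in the 1-week samples than in the 4-month samples.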

How the data were processed

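Thyroid RNA of 8 rats, 2 per group, was sequenced as paired reads of 100 bases from a directional library. The authors mapped the reads with HISAT2 2.2.1 and counted them with featureCounts 2.0.0 (names and versions also in the submitters' processing notes). The authors deposited 1 table with raw counts, TPM, and RPKM, in which 54991 transcripts belong to 30560 gene identifiers. The genome build, the strand setting, and the treatment of reads with several matches are not given in the sources used here. The deposited counts had not been normalized, and the deposited TPM were scaled by transcript length and library. The 8 RPKM columns were not used.

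For each gene the transcript with the highest total was taken, of equal ones the top row, which was needed for Mx2 (2 transcripts with 7708 counts each). The design had assumed 1 value per gene. Tests used edgeR 4.0.16 in R 4.3.3, the quasi-likelihood test with TMM, filterByExpr, and Benjamini-Hochberg adjustment over all genes tested. Each irradiation comparison and the age comparison were fitted on their own 4 samples, the interaction and both ages together on all 8. Calls needed an adjusted p below 0.05, and in the comparisons of irradiation at 1 age also a fold above 1.5 or below 0.5, as in the study. Correlations and gaps between samples are on log2(CPM + 0.5) and are descriptions with no test. The p-values rest on 2 rats per group, and edgeR moderates the spread of each gene towards that of all genes. For the interaction and both ages together the spread comes from all 8 samples.

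The 9 genes, the 10 other lists with 164 names, and the tests were chosen with earlier results of these data known. Genes named are the 9 members, Cdkn1a, the receptor and signalling genes, the defining markers of the lists, list genes called in a comparison, and the 10 genes most like the members. The lists hold interferon ligands, nucleic acid sensors, receptor and signalling genes, other interferon-stimulated genes, interferon gamma genes, leukocytes, macrophages and dendritic cells, endothelium, thyroid follicular cells, and neighbouring tissue. Lists are described by counts and medians. Promoters came from RefSeq, assembly GRCr8. On simulated counts edgeR recovered 194 of 200 genes changed 3-fold among 15359 for 1w4Gy against 1w0Gy, with 10 false calls. For 4m4Gy against 4m0Gy it recovered 198 of 200 among 15253, with 22 false calls. The changed genes were drawn only from those above a minimum mean count, and the dispersions were those fitted to the data. Calls there needed the adjusted p alone, with no fold limit. Recovery in the real samples, or of genes with few counts, was therefore not measured. In the real samples Cdkn1a, at 2.88-fold and 2.57-fold, was not called by this edgeR fit in these comparisons. Its adjusted p was below 0.05 under some of the alternatives. Alternatives were DESeq2 1.42.0, other scalings and filters, all 8 samples in 1 fit, a replicate block, sums over transcripts, log2(TPM + 1), age over both doses, no fold limit, and leaving out each sample. Robust dispersions were added after seeing the data. Some results that the rule for named genes selects are not reported here.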

Additional observations from a re-analysis of the deposited data

How the results depend on the processing

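In every alternative tried, 0 of the 9 genes were called in each of the 5 comparisons, which covers 46 counts under other settings and 28 without 1 sample. All 49 medians of the 9 genes under other settings, and 23 of 28 without 1 sample, moved by less than 0.22 on the log2 scale, the median spread between samples. Without 1 sample the median ran from -0.47 to 0.02 for irradiation at 4 months, from -0.26 to 0.30 for age in sham rats, and from 0.017 to 0.53 for the interaction, both ends in each case without a sample of 4m0Gy. It ran from -0.05 to 0.15 for neonatal irradiation and from -0.18 to 0.08 for both ages together. The cause of the difference between the 4m0Gy samples was not tested.

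Of 441 single values under other settings 12 changed sign. For irradiation at 4 months, Ifit2 stood at 0.0069 with the upper quartile, 0.00035 in the fit of all 8 samples, and 0.0099 with the replicate block. For age in sham rats, Isg15 stood at -0.00060 with DESeq2, -0.0052 with the upper quartile, -0.0089 with the replicate block, -0.0025 with sums over transcripts, and -0.16 with age over both doses. There Irf7 stood at -0.015 with the replicate block and -0.037 over both doses, Mx1 at -0.015, and Usp18 at -0.073 over both doses.

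Without 1 sample, 39 of 252 single values changed sign. The ranges for neonatal irradiation were -0.20 to 0.39 for Isg15, -0.038 to 0.16 for Mx1, -0.25 to 0.11 for Mx2, -0.34 to 0.26 for Irf7, -0.22 to 0.025 for Usp18, and -0.053 to 0.46 for Rsad2. The ranges for irradiation at 4 months were -0.21 to 0.24 for Ifit2, -0.56 to 0.068 for Ifit3, -0.42 to 0.021 for Isg15, -0.40 to 0.26 for Irf7, and -0.57 to 0.045 for Oas1a. The ranges for age in sham rats were -0.17 to 0.47 for Ifit3, -0.24 to 0.21 for Isg15, -0.042 to 0.33 for Mx1, -0.37 to 0.30 for Irf7, -0.54 to 0.076 for Oas1a, and -0.26 to 0.32 for Usp18. The ranges for the interaction were -0.15 to 0.30 for Ifit2, -0.053 to 0.31 for Mx2, -0.28 to 0.38 for Irf7, -0.21 to 0.40 for Oas1a, and -0.037 to 0.54 for Usp18. The ranges for both ages together were -0.024 to 0.14 for Ifit2, -0.18 to 0.080 for Ifit3, -0.21 to 0.084 for Isg15, -0.20 to 0.095 for Irf7, and -0.24 to 0.11 for Rsad2.

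The replicate numbers did not pair the samples. The correlation of the deviations of same-numbered samples ran from -0.26 to 0.22 over the 6 pairs of groups. With the replicate block 0 of the 9 genes were called in each comparison, and the adult median was -0.26 with 3 of 9 genes at an unadjusted p under 0.05, against 0 without it. The block gave a neonatal median of 0.06.

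The numbers of all genes called moved more than the 9 genes did. DESeq2 was run without edgeR's filter, so its counts differ from the others in both the test and the genes tested (for age in sham rats 21241 in place of 15364). For neonatal irradiation edgeR's 0 calls became 13 with DESeq2, 7 with the replicate block, 1 in the fit of all 8 samples, and 1 with robust dispersions, a setting chosen after seeing the data. For irradiation at 4 months 0 became 4 with DESeq2, 2 with no filter, 2 with the replicate block, and 3 with robust dispersions. For age in sham rats 111 became 343 with DESeq2, 436 with no filter, 20 with the replicate block, 17 with sums over transcripts, and 666 over both doses. The interaction had 0 calls, 21 with DESeq2 and 2 with no filter, and both ages together had 1 call, 12 with DESeq2, 3 with no filter, and 2 with robust dispersions. Without 1 sample the calls ran from 0 to 59 for neonatal irradiation (59 without sample 2 of 1w4Gy), from 1 to 34 for irradiation at 4 months, and from 0 to 641 for age. The smallest change of the 9 genes that could be called with 2 rats per group was not measured. The adult median changed sign without sample 2 of 4m0Gy.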
